A study of Mus musculus with 12 samples.

Results

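The 134 genes described here are the solute carrier genes that the arrays measured in mouse liver tissue or isolated hepatocytes. They were chosen as genes with a symbol starting with Slc and a digit, leaving out Slc40a1, Slc10a1, Slc1a2 and Slc2a2. Each had a probe with a raw signal above 100 on all 3 arrays of at least 1 group, and the brightest such probe stood for the gene. The arrays named 352 such genes on 640 probes, so 218 genes stayed below that signal, and the 134 members came with 182 probes of the 45281 on the array. The raw signal chose the members, and those below the threshold in some group entered through the groups where they were brighter. Of the members, 114 were above the threshold in all 4 groups, 4 in 3 groups, 4 in 2 groups and 12 in 1 group. Just inside the threshold, the lowest raw signal in the best group was 102 for Slc31a2, 105 for Slc41a3 and 106 for Slc29a3. Just outside, it was 97.2 for the best probe of Slc17a9, 97.0 for Slc26a4 and 96.5 for Slc7a7.

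Solute carriers are membrane proteins that carry sugars, amino acids, ions, metals, vitamins and metabolites into or out of cells and organelles. Some exchange one solute for another, and others couple transport to a sodium, proton or bicarbonate gradient. In liver they feed gluconeogenesis, the urea cycle and fatty acid oxidation with substrate, and the carriers of family Slc25 link the mitochondrial matrix to the cytosol. The symbols do not always mean transport: 4 members encode partner or neighbouring genes, namely the scaffold proteins Slc9a3r1 and Slc9a3r2, Slc4a1ap and Slc7a6os.

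RNA was measured on 12 Illumina bead arrays, 3 in each of 4 groups from male adult C57BL6/J mice. The first group is Dhep hepatocytes, liver cells isolated from a Cre-positive mouse labelled IkkβDhep, a notation for deletion in hepatocytes of Ikkβ, the kinase that activates NF-κB. The others are FF hepatocytes, isolated in the same way from a Cre-negative mouse (IkkβF/F), Dhep liver, and FF liver. The study's description counts 4 mice and 4 RNA samples, so a group's 3 arrays were treated as repeat measurements of 1 RNA sample. By the usual notation F/F, those mice carry floxed Ikkβ alleles and no deletion, and no source used here names the promoter that drives Cre. Ages are 4 to 6 weeks in the labels and 6 to 8 weeks in the description. Every p-value below therefore compares RNA samples, and the genotype and the individual mouse cannot be told apart.

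Raw 75th percentiles ran from 105 to 119 in Dhep hepatocytes, 75.5 to 85.7 in FF hepatocytes, 94.7 to 115 in Dhep liver and 101 to 114 in FF liver, so FF hepatocytes were dimmest. Quantile normalization brings the arrays to 1 shared distribution. Scaling by the array median instead moved the median of all probes from near 0 to 0.17 (Dhep minus FF, hepatocytes) and -0.15 (hepatocytes minus liver, FF) on the log2 scale, and the members moved further: by 0.15 to 0.50 in the first of these comparisons, by -0.51 to -0.09 in the second, by 0.06 to 0.19 for hepatocytes minus liver in Dhep and by -0.23 to 0.00 for Dhep minus FF in liver. Single values below are on the quantile scale unless median scaling is named. Ikbkb, which encodes Ikkβ, was read on its brightest tested probe alone. On that probe it was higher, not lower, in Dhep than in FF hepatocytes (0.31 ± 0.06, limma adjusted p = 0.000116, under the fold threshold), against the label. The liver difference was -0.15 (limma adjusted p = 0.0726). Where the probe lies relative to the deleted part is not known here, so it does not check the labels, and the groups are called by those labels throughout. Of 8 hepatocyte markers 7 were measured, and none was called in any of the 4 pairwise comparisons. Apoa1, a secreted apolipoprotein, had log2 means of 15.10 in Dhep hepatocytes, 15.07 in FF hepatocytes, 14.96 in Dhep liver and 15.09 in FF liver, while the probe of Alb, albumin, stood at 8.10 in Dhep hepatocytes, 8.35 in FF hepatocytes, 7.67 in Dhep liver and 7.82 in FF liver. Macrophage markers were present in the isolated cells too: the log2 of their summed signal over 9 genes was 13.56 to 13.60 in Dhep hepatocytes, 11.88 to 11.90 in FF hepatocytes, 13.14 to 13.19 in Dhep liver and 12.02 to 12.07 in FF liver.

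A member was called when the limma adjusted p, over all 22859 probes kept, was under 0.05 and the absolute log2 difference was at least 1. Between Dhep and FF hepatocytes, 6 of 134 members were called, 4 higher and 2 lower in Dhep hepatocytes. The risers were Slc15a3, Slc41a2, Slc25a30 and Slc13a3, and Slc13a2 and Slc4a4 fell. With median scaling 7 were called higher and 0 lower, the 4 risers among them, where 914 of 22854 probes were called higher and 73 lower. Slc13a2 entered through the FF groups alone and Slc25a30 through the hepatocyte groups alone, and the other 4 called members were above the signal threshold in all 4 groups. Of all probes tested, 1.22% were called higher and 1.24% lower. Over the 7381 genes with a brightest probe chosen the same way, 2.45% were called higher and 1.98% lower, against 2.99% and 1.49% of the members, shares near the background.

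**Figure D1:**
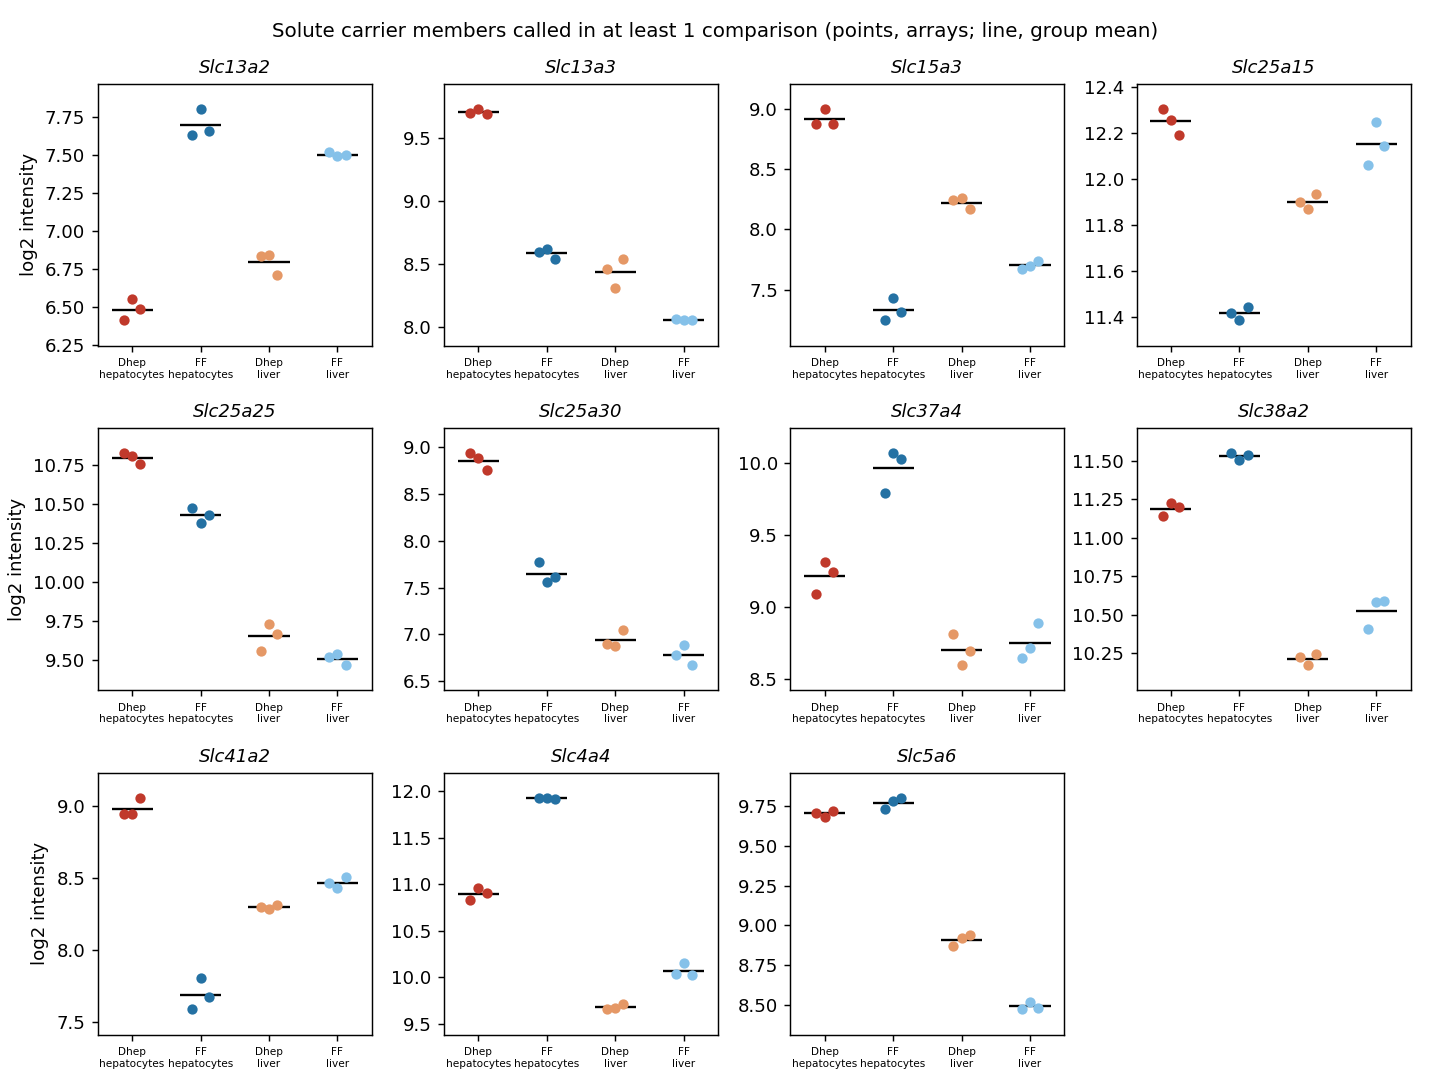
Log2 intensity of the 11 members called in at least 1 comparison, by group (points, arrays; line, group mean; each panel has its own axis). The 3 arrays of a group lie close together, and Slc4a4 is highest in FF hepatocytes (11.91 to 11.93), while Slc25a30 is highest in Dhep hepatocytes (8.75 to 8.93).

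Slc15a3, on chromosome 19, encodes a proton-coupled transporter of histidine and small peptides in lysosomes of immune cells. Its log2 intensity was 8.87, 9.00 and 8.87 on the Dhep hepatocyte arrays and 7.25, 7.43 and 7.32 on the FF hepatocyte arrays. In liver it was 8.24, 8.26 and 8.17 in Dhep and 7.67, 7.70 and 7.74 in FF. Dhep arrays were above FF arrays in both preparations without overlap, and FF hepatocytes were the lowest group. Slc15a3 rose 2.99-fold in Dhep hepatocytes (log2 difference 1.58 ± 0.06, SE, limma adjusted p = 1.46e-16). The difference in liver, 0.52 ± 0.06, was under the fold threshold (limma adjusted p = 3.15e-07).

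Slc41a2, on chromosome 10, encodes a magnesium transporter. Its log2 intensity was 8.95, 8.95 and 9.06 in Dhep hepatocytes and 7.59, 7.81 and 7.67 in FF hepatocytes. In liver it was 8.30, 8.29 and 8.31 in Dhep and 8.46, 8.44 and 8.51 in FF. The genotype order was opposite in the 2 preparations, with both livers between the hepatocyte groups. Slc41a2 rose 2.45-fold in Dhep hepatocytes (1.29 ± 0.06, limma adjusted p = 6.15e-15), and the liver difference was -0.17 ± 0.06.

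Slc25a30, on chromosome 14, encodes a mitochondrial carrier related to the uncoupling proteins. It had log2 intensities of 8.93, 8.88 and 8.75 in Dhep hepatocytes and 7.77, 7.56 and 7.61 in FF hepatocytes. The liver arrays stood at 6.90, 6.87 and 7.05 in Dhep and 6.78, 6.89 and 6.67 in FF. Both hepatocyte groups were above both livers, the livers of the 2 genotypes overlapped, and the raw signal passed 100 on all 3 arrays of a group in the hepatocyte groups alone. Slc25a30 rose 2.32-fold in Dhep hepatocytes against FF hepatocytes (1.21 ± 0.07, limma adjusted p = 4.91e-13).

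Slc13a3 and Slc13a2 encode sodium-coupled carriers of dicarboxylates such as succinate and α-ketoglutarate, and they were called in opposite directions. Slc13a3, on chromosome 2, had log2 intensities of 9.70, 9.73 and 9.69 in Dhep hepatocytes and 8.60, 8.62 and 8.54 in FF hepatocytes. In liver it had 8.46, 8.31 and 8.54 in Dhep and 8.06, 8.06 and 8.05 in FF. Dhep exceeded FF in both preparations, and isolated cells exceeded liver in both genotypes. Slc13a3 rose 2.18-fold in Dhep hepatocytes (1.12 ± 0.06, limma adjusted p = 6.97e-14), and its other probe stood at 0.85, under the fold threshold.

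Slc13a2, on chromosome 11, had log2 intensities of 6.41, 6.55 and 6.48 in Dhep hepatocytes and 7.63, 7.80 and 7.66 in FF hepatocytes. In liver the values were 6.84, 6.84 and 6.71 in Dhep and 7.52, 7.49 and 7.50 in FF. Dhep arrays were below FF arrays in both preparations, and the raw signal passed 100 on all 3 arrays of a group in the 2 FF groups alone. Since Slc13a2 entered through those groups, its genotype differences are a description: -1.22 in hepatocytes, or 2.32-fold lower in Dhep hepatocytes, and -0.71 in liver. The hepatocyte difference stood at -0.99 without background correction and at -0.89 with median scaling, both under the fold threshold.

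Slc4a4, on chromosome 5, encodes the electrogenic sodium bicarbonate cotransporter. Its log2 intensity was 10.83, 10.96 and 10.90 in Dhep hepatocytes and 11.92, 11.93 and 11.91 in FF hepatocytes. In liver it was 9.66, 9.67 and 9.72 in Dhep and 10.04, 10.15 and 10.03 in FF. All 4 groups were separate, in the order FF hepatocytes, Dhep hepatocytes, FF liver and Dhep liver. Slc4a4 fell 2.03-fold in Dhep hepatocytes (-1.02 ± 0.05, limma adjusted p = 1.39e-13). The difference was -0.68 with median scaling and -0.99 without Dhep hepatocyte array 1, both under the fold threshold.

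The upstream sequences of 10 of the 11 called members (Slc15a3 had no entry) were searched for the letters of 8 known motifs on both strands. RefSeq (GRCm38.p6) gave promoters for 106 members, 150 in all, of which the 250 bases before the start were used. The letters searched were CACGTG (the E-box bound by clock factors), GGGA and CC with 4 bases between (NF-κB), GAAA repeated after 2 bases (interferon-stimulated response element), TGACGTCA (CREB), TATAAA (core promoters), CAAAGTCCA (HNF4), GNACA and TGTNC with 3 bases between (glucocorticoid receptor) and GTTAAT and ATTAAC with 1 base between (HNF1). Of the called members' windows, 7 held a match, and the 4 below are shown because they hold, in capitals, all 5 motifs matched. Slc13a3 (chr2:165473198-165473447, minus strand) holds the E-box letters once and the NF-κB letters at 2 places. Slc13a2 (chr11:78422235-78422484, minus strand) holds the TATA letters near its start, read on the other strand. The first promoter of Slc25a15 (chr8:22398622-22398871, minus strand) holds the interferon-stimulated letters on the other strand. The third promoter of Slc25a25 (chr2:32424067-32424316, minus strand) holds the CREB letters.
Slc13a3: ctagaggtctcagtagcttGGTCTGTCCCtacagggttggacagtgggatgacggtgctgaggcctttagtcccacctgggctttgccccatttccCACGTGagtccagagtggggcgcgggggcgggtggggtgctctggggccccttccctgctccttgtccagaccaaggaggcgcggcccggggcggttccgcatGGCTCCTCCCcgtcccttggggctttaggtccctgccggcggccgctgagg
Slc13a2: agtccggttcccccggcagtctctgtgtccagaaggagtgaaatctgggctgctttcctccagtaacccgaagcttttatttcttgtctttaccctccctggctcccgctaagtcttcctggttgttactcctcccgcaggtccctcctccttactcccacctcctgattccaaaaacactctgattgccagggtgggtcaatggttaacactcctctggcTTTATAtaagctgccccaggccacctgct
Slc25a15: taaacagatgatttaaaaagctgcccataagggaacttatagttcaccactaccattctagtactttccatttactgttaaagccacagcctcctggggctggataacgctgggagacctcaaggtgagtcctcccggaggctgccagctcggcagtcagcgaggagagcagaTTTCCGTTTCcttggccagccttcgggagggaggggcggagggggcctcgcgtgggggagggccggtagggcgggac
Slc25a25: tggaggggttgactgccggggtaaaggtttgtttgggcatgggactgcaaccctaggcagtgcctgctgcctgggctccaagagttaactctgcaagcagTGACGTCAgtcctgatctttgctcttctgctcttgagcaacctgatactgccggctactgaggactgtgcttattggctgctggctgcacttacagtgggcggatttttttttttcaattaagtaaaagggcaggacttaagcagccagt

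The E-box letters occurred in 12.7% of the members' promoters, against 6.02% of 32851 RefSeq promoters of that length. The NF-κB letters occurred in 23.3% against 17.6%, the TATA letters in 6.67% against 12.4%, the interferon-stimulated letters in 0.667% against 2.98% and the CREB letters in 0.667% against 1.55%. The other 3 motifs had 0 matches among the members' promoters and 0.387%, 0.384% and 0.0091% among all. E-box letters also stood in the second promoter of Slc25a15, and Slc37a4 held the NF-κB letters in its first promoter and the TATA letters in another. The windows of Slc25a30, Slc41a2, Slc38a2, Slc4a4 and Slc5a6 held none of these letters.

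In liver, 0 of 134 members were called between Dhep and FF by limma, where 0.503% of all probes were called higher and 0.0919% lower. At the adjusted p alone 20 members were higher and 31 lower in Dhep liver, where 13.1% of all probes were higher and 14.7% lower. Among the genes chosen the same way 16.9% were higher and 24.2% lower, against 14.9% and 23.1% of the members, shares near the background. The member counts were 10 and 53 with median scaling, 34 and 24 with cyclic loess and 25 and 23 in the authors' normalized table, so no direction can be given. Shares at the adjusted p alone over all probes were not computed under these other scalings. The largest positive difference belonged to Slc11a1, the metal transporter NRAMP1 of macrophage phagosomes. Its brightest probe had log2 intensities of 11.21, 11.25 and 11.28 in Dhep liver and 10.45, 10.46 and 10.74 in FF liver, a difference of 0.70 ± 0.07. Slc15a3 (0.52), the organic anion transporter family member Slc22a30 (0.46) and the multivitamin transporter Slc5a6 (0.42) came next. The largest negative differences after Slc13a2 were those of Slc4a4 (-0.39), the choline transporter Slc44a1 (-0.36) and the sodium-potassium-chloride cotransporter Slc12a2 (-0.33).

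Slc11a1 was measured by 4 probes that differed in size of response. On the brightest, Dhep hepatocytes stood at 11.56, 11.45 and 11.49 and FF hepatocytes at 11.02, 10.94 and 11.01, a difference of 0.51. The other 3 probes gave 1.56, 1.94 and 2.03 in hepatocytes and 0.61 to 0.94 in liver. All 4 differences were positive in both preparations, and the probe with 1.94 passed both thresholds in hepatocytes. The probes with 1.56 and 2.03 stood at 6.17 and 6.24 in FF hepatocytes and at 6.21 and 6.48 in FF liver. These FF values lay near the floor of log2 6.06, so the genotype differences of those probes are given as a description. The probe with 1.94 stood at 7.6 in FF hepatocytes and 7.8 in FF liver. Macrophage markers moved with Slc11a1 and Slc15a3: of 9 measured, 7 were called higher in Dhep hepatocytes (median 1.79) and 6 in Dhep liver (median 1.16). Adgre1, which encodes F4/80, differed by 2.03 and 1.27, and the summed marker levels given above were highest in Dhep hepatocytes. The part of these cells in the Slc11a1 and Slc15a3 values was not tested, and in bulk RNA fewer cells of a type and less RNA per cell cannot be told apart.

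**Figure D2:**
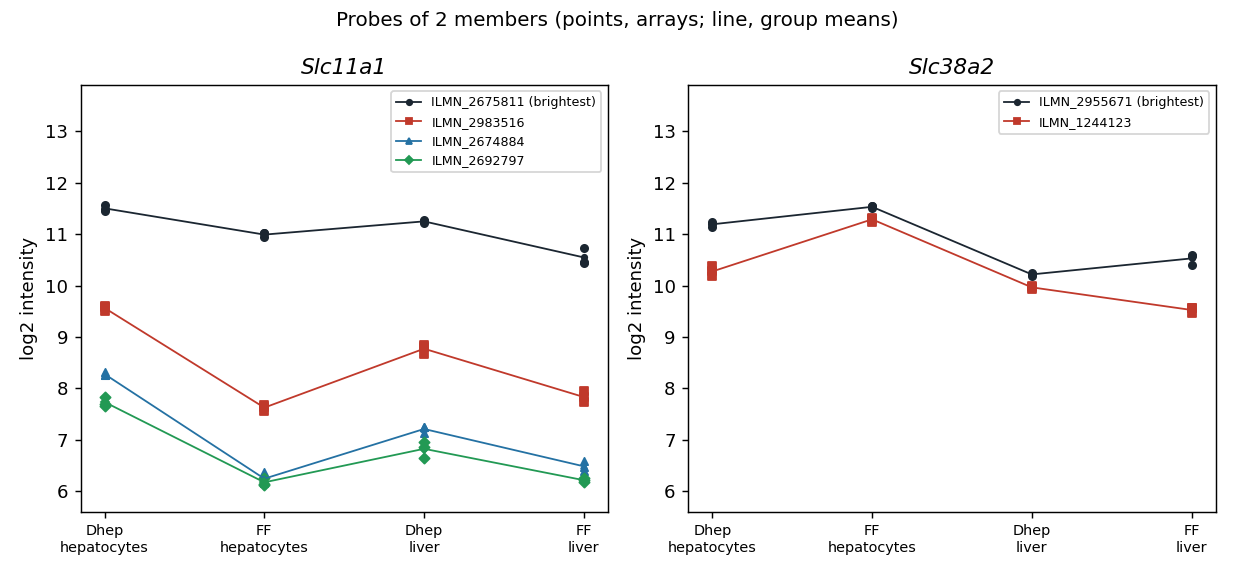
Log2 intensity of every probe of Slc11a1 and Slc38a2 above the signal threshold, by group (points, arrays; lines join group means). The brightest Slc11a1 probe differs by 0.51 between Dhep and FF hepatocytes and the other 3 by 1.56 to 2.03, and the probes of Slc38a2 differ in order between the livers.

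Isolation of hepatocytes was compared with liver tissue in each genotype. In Dhep, 4 members were called higher in hepatocytes and 0 lower, where 0.494% of all probes were called higher and 0.472% lower. In FF, 4 were called higher and 0 lower, where 1.25% of probes were called higher and 0.192% lower. Among genes chosen the same way, 1.04% were called higher in Dhep and 1.35% in FF, against 2.99% of the members in each. With median scaling 6 were called higher and 0 lower in Dhep, and 1 higher and 3 lower in FF, where Slc4a4 was the one higher and Slc25a15, Slc25a23 and Slc41a2 were lower. Of 22854 probes, that scaling called 168 higher and 72 lower in Dhep, and 115 higher and 551 lower in FF. Slc4a4 rose in both genotypes, 2.32-fold in Dhep hepatocytes (1.21 ± 0.05, limma adjusted p = 1.45e-14) and 3.60-fold in FF hepatocytes (1.85 ± 0.05, limma adjusted p = 4.4e-18), each against liver of the same genotype.

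In Dhep, the other called members were Slc25a30, Slc13a3 and Slc25a25. Slc25a30 was 3.78-fold higher in hepatocytes (1.92), given as a description because it entered through the hepatocyte groups and its liver values lay near the floor of log2 6.06. Slc13a3 rose 2.41-fold (1.27 ± 0.06, limma adjusted p = 1.77e-14), and its other probe stood at 0.86. Slc25a25, on chromosome 2, encodes a calcium-regulated carrier that exchanges ATP-magnesium for phosphate across the mitochondrial inner membrane. Its log2 intensity was 10.82, 10.80 and 10.75 in Dhep hepatocytes and 9.56, 9.73 and 9.66 in Dhep liver. In FF it was 10.47, 10.37 and 10.43 in hepatocytes and 9.52, 9.54 and 9.47 in liver. Isolated cells were above liver in both genotypes, and Slc25a25 rose 2.21-fold in Dhep (1.14 ± 0.06, limma adjusted p = 7.39e-14) and stood at 0.92 in FF.

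In FF, the other risers were Slc5a6, Slc37a4 and Slc38a2. Slc5a6, on chromosome 5, takes up biotin and pantothenate with sodium. It had log2 intensities of 9.73, 9.78 and 9.80 in FF hepatocytes and 8.47, 8.52 and 8.48 in FF liver, and rose 2.42-fold (1.27 ± 0.05, limma adjusted p = 1.16e-15). In Dhep it had 9.71, 9.68 and 9.72 in hepatocytes and 8.87, 8.92 and 8.94 in liver. The 2 hepatocyte groups lay close to each other, and Dhep liver was above FF liver. With median scaling the FF difference of Slc5a6 was 0.81, under the fold threshold.

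Slc37a4, on chromosome 9, carries glucose phosphate into the endoplasmic reticulum for the last step of glucose release. It had log2 intensities of 9.79, 10.06 and 10.03 in FF hepatocytes and 8.65, 8.72 and 8.89 in FF liver, and rose 2.31-fold (1.21 ± 0.08, limma adjusted p = 6.11e-12). In Dhep it had 9.09, 9.31 and 9.24 in hepatocytes and 8.81, 8.60 and 8.70 in liver. FF hepatocytes stood above the other 3 groups, and the livers overlapped. Its FF difference was 0.75 with median scaling, under the fold threshold.

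Slc38a2, on chromosome 15, encodes a sodium-coupled carrier of neutral amino acids. Its brightest probe had 11.55, 11.51 and 11.54 in FF hepatocytes and 10.41, 10.58 and 10.59 in FF liver. That difference, 1.003 ± 0.057 (limma adjusted p = 7.28e-13), lay at the threshold and was lost without background correction (0.99), with median scaling (0.55) and without FF liver array 1 (0.94), FF hepatocyte array 1 (0.99) or FF hepatocyte array 3 (0.997). The other Slc38a2 probe gave 1.76. Between Dhep and FF hepatocytes the 2 probes gave -0.34 (0.01 with median scaling) and -1.01, and between the livers -0.31 and 0.44.

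Without the fold threshold, more members were higher than lower in isolated cells on the quantile scale. At the adjusted p alone, 71 were higher and 18 lower in Dhep hepatocytes than in Dhep liver, where 21.4% of probes were higher and 20.5% lower. In FF, 82 were higher and 23 lower in hepatocytes, where 20.9% of probes were higher and 26.9% lower. Of the genes chosen the same way, 32.3% were higher and 30.6% lower in Dhep, and 27.9% and 39.1% in FF. In both genotypes together, 53 members (39.6%) were higher in both, 6 (4.48%) lower in both and 13 (9.70%) opposite, against 13.5%, 13.5% and 15.3% of those genes. These joint counts were not computed with median scaling. The members' median was 0.17 in Dhep and 0.29 in FF, against 0.01 and -0.03 over all kept probes. With median scaling the Dhep counts were 87 higher and 8 lower, and the FF counts turned to 31 higher and 56 lower, with medians of 0.33 and -0.09 for the members and 0.06 and -0.15 for all probes. The members' median thus lay above that of all probes under both scalings, by 0.16 and 0.27 in Dhep and by 0.32 and 0.07 in FF. All probes include many dimmer than the members, and members moved further between scalings. The part of brightness in these gaps was not tested. The genes chosen the same way had quantile medians of 0.019 in Dhep and -0.065 in FF. Their medians and their shares at the adjusted p alone were not computed with median scaling.

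**Figure D3:**
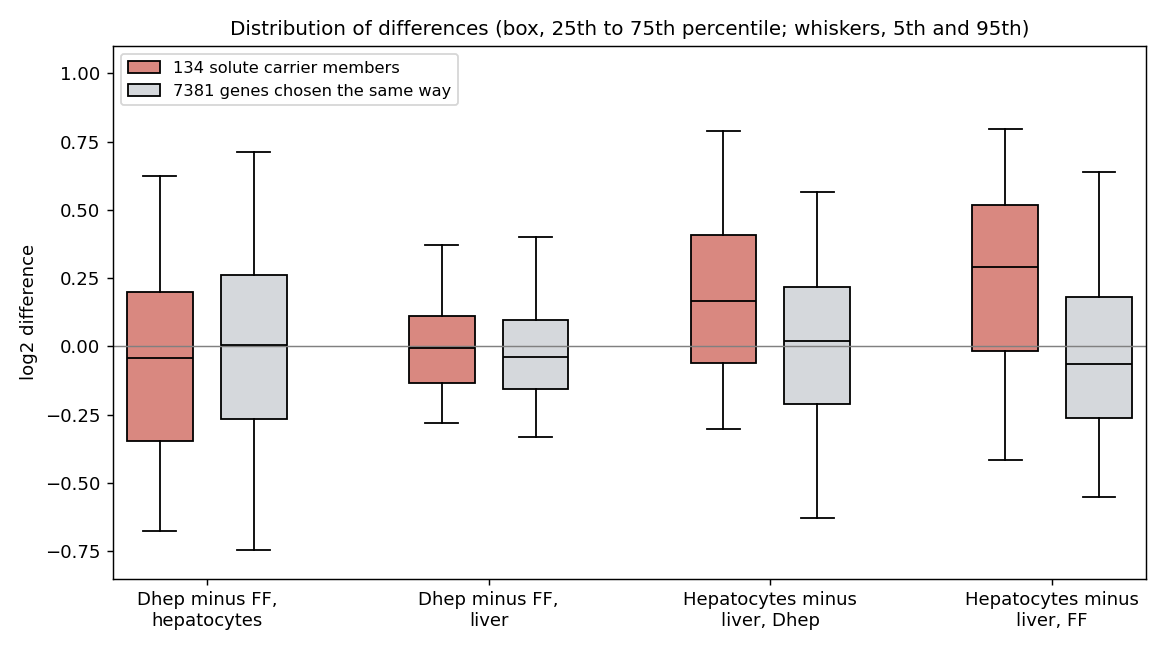
Distribution of log2 differences in 4 comparisons, for the 134 members and for the 7381 genes whose brightest probe was chosen the same way (box, 25th to 75th percentile with the median; whiskers, 5th and 95th percentiles; quantile normalization). The members' boxes sit higher in both isolation comparisons (medians 0.17 and 0.29), and with median scaling the FF median of the members turns to -0.09.

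Between Dhep and FF hepatocytes, 38 members were higher and 58 lower at the adjusted p alone, where 27.7% of all probes were higher and 26.2% lower. Among the genes chosen the same way, 35.9% were higher and 34.6% lower, against 28.4% and 43.3% of the members. With median scaling the member counts turned to 90 and 14, so no direction for the family as a whole can be given. The shares of all probes and of those genes were not computed with that scaling. Restricted to the 114 members above the threshold in all 4 groups, 3 were called higher and 1 lower between hepatocyte genotypes, with 3 and 4 called higher by isolation in Dhep and FF.

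**Figure D4:**
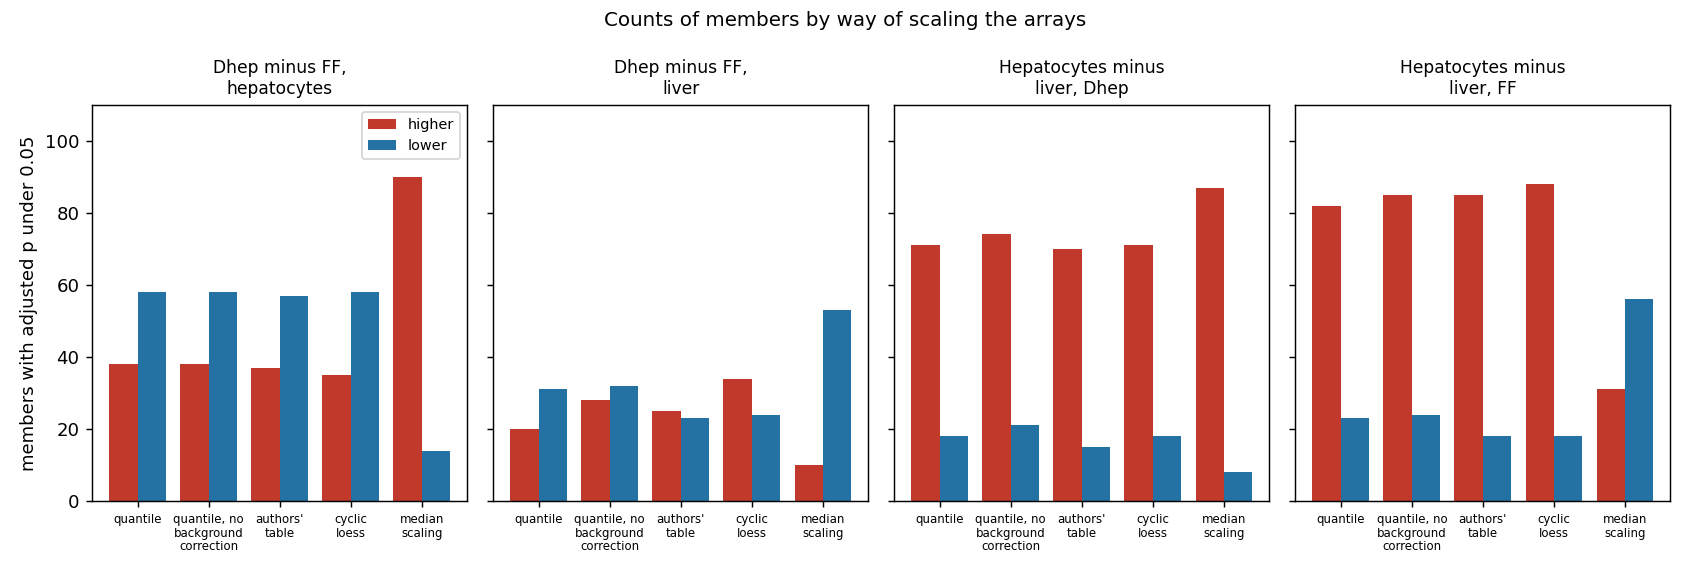
Members with an adjusted p under 0.05, higher or lower, under 5 ways of scaling the arrays (bars, counts of 134). Median scaling turns Dhep minus FF in hepatocytes from 38 higher and 58 lower to 90 and 14, and hepatocytes minus liver in FF from 82 and 23 to 31 and 56. Shares over all probes at the adjusted p alone were computed on the quantile scale only.

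The counts by substrate below are to be read beside the genes chosen the same way at the adjusted p. Of those genes, 35.9% were higher and 34.6% lower between Dhep and FF hepatocytes. By isolation the shares were 32.3% and 30.6% in Dhep and 27.9% and 39.1% in FF. All these shares are on the quantile scale, and none was computed with median scaling. Grouped by substrate, carriers of amino acids, taurine, betaine and creatine were 17 members. In FF hepatocytes against FF liver, 15 passed the adjusted p higher and 0 lower, with a median of 0.46, and Slc38a2 alone was called. With median scaling it was 7 higher and 3 lower (median 0.08). In Dhep hepatocytes against Dhep liver, 10 were higher and 0 lower with a median of 0.19, and 11 and 0 with median scaling (0.36). Between Dhep and FF hepatocytes, 2 were higher and 12 lower (median -0.36), or 6 and 3 with median scaling (0.05). The lysosomal cationic amino acid carrier Slc66a1 stood at -0.57 (-0.08 with median scaling), and Slc7a2, which takes up arginine, stood at 0.61 on its brightest probe (0.98 with median scaling) and at 0.55 and 0.85 on the others.

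**Figure D5:**
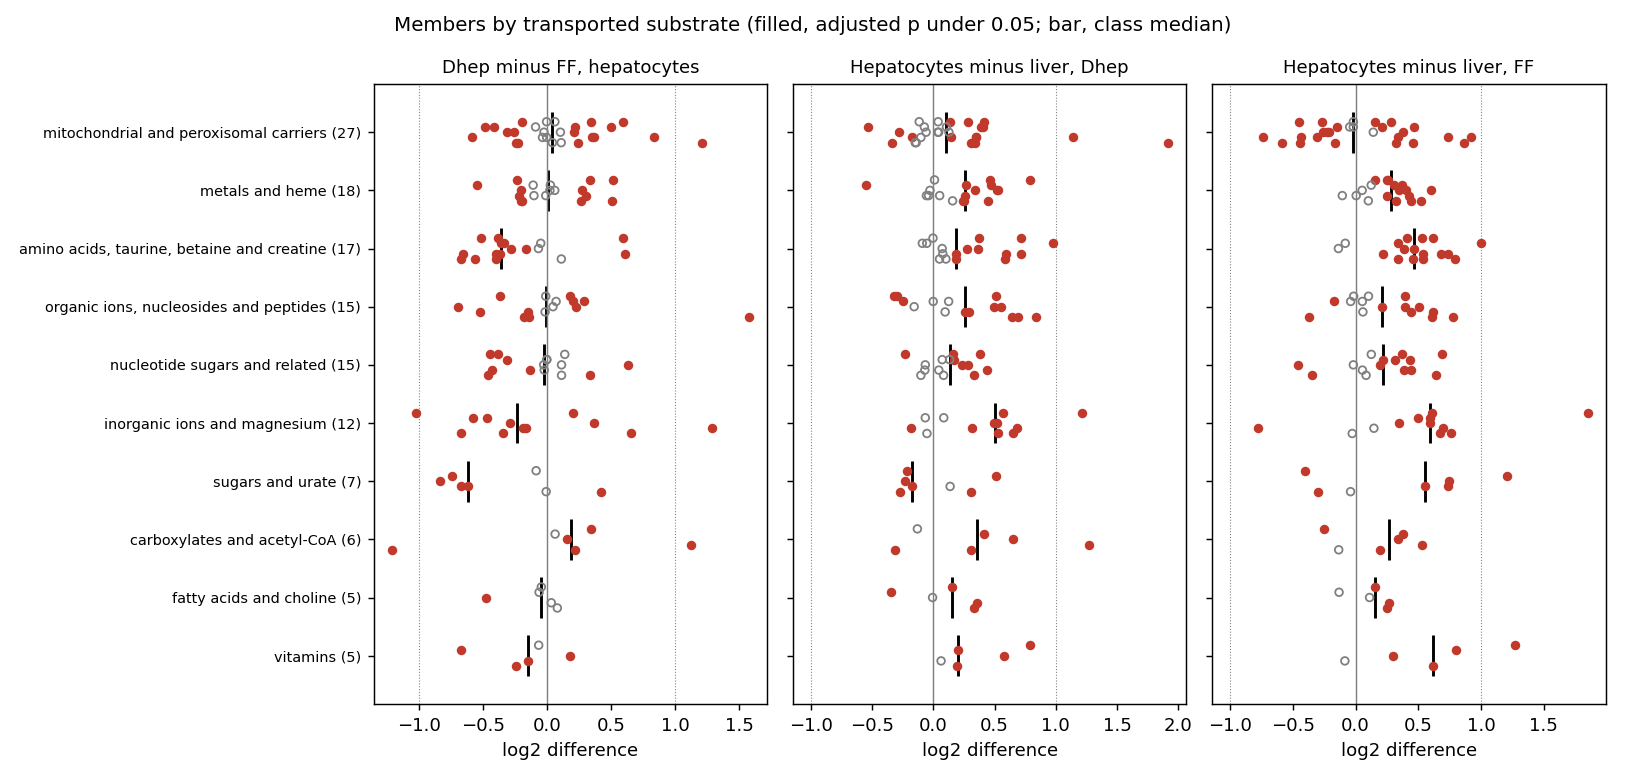
Log2 differences of members by transported substrate in 3 comparisons (points, members; filled, adjusted p under 0.05; bar, class median; dotted lines, the fold threshold; number of members in brackets). Amino acid carriers lie to the right in FF isolation (median 0.46, and 0.08 with median scaling) and sugar and urate carriers to the left between hepatocyte genotypes (-0.62, and -0.16).

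The 27 mitochondrial and peroxisomal carriers went both ways. Between Dhep and FF hepatocytes, 10 were higher and 8 lower (median 0.04), where 35.9% and 34.6% of the genes chosen the same way were. With median scaling it was 22 and 0 (0.42), and that scaling raised each of the 134 members in this comparison, by 0.15 to 0.50. By isolation in FF, 11 were higher and 12 lower (-0.02), and with median scaling 4 and 18 (-0.46). The coenzyme A carrier Slc25a42 stood at -0.59 between the hepatocyte genotypes and at 0.74 by isolation in FF, or at -0.10 and 0.27 with median scaling. Mitoferrin Slc25a28, which brings iron to mitochondria, stood at -0.49 between the hepatocyte genotypes, or -0.04 with median scaling, and at -0.53 by isolation in Dhep. Slc25a23, another ATP-magnesium carrier, stood at -0.58 by isolation in FF (-1.05 with median scaling).

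Sugar and urate carriers, 7 members, had a median of -0.62 between Dhep and FF hepatocytes, or -0.16 with median scaling. Of these, 1 was higher and 4 lower at the adjusted p, and none was called. The urate transporter Slc2a9 had 7.90, 7.92 and 8.04 in Dhep hepatocytes and 8.83, 8.70 and 8.84 in FF hepatocytes, a difference of -0.84 ± 0.06 (limma adjusted p = 8.75e-12). Slc37a4 stood at -0.74, the sugar transporter Slc50a1 at -0.67 and the intracellular hexose transporter Slc2a8 at -0.62, and with median scaling these 4 lay between -0.34 and -0.16. On these 4 probes FF hepatocytes stood above the other 3 groups, and the 2 livers differed by -0.05 to 0.14.

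Inorganic ion and magnesium carriers, 12 members, had isolation medians of 0.51 in Dhep and 0.59 in FF (0.64 and 0.21 with median scaling). In Dhep 8 were higher and 1 lower, and in FF 9 and 1, with Slc41a2 the lower one in FF at -0.78 (-1.19 with median scaling). The chloride cotransporter Slc12a2 stood at 0.65 in Dhep and 0.67 in FF (0.20 in FF with median scaling), with 0.48 and -0.11 on its other probe. The sulfate transporter Slc26a1 stood at -0.05 in Dhep and at 0.76 in FF, or 0.32 in FF with median scaling. The mitochondrial sodium-calcium exchanger Slc8b1 stood at 0.32 in Dhep and 0.70 in FF (0.25 in FF with median scaling).

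Metal and heme carriers, 18 members, had isolation medians of 0.26 in Dhep and 0.28 in FF, with 11 higher and 1 lower in Dhep and 13 and 0 in FF. With median scaling the FF counts were 1 higher and 5 lower (median -0.08). The zinc transporter Slc30a5 stood at 0.52 between Dhep and FF hepatocytes (0.95 with median scaling) and at 0.58 on its other probe. The zinc importer Slc39a4 stood at -0.55 on its brightest probe (-0.19 with median scaling) and at 0.55 on its other, so its direction between hepatocyte genotypes depends on the probe. Slc39a14, an importer of zinc and iron that inflammation induces in liver, stood at -0.20 between the hepatocyte genotypes (0.16 with median scaling) and at 0.06 between the livers. Its other probe gave 0.06 and 0.11. The brightest probe passed the signal threshold in Dhep hepatocytes alone, so its differences are given as a description.

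The other classes were smaller or nearer to 0. Vitamin carriers, 5 members, had isolation medians of 0.20 in Dhep and 0.61 in FF (0.36 and 0.22 with median scaling). The folate transporter Slc46a1 stood at 0.20 in Dhep and 0.80 in FF, and the folate carrier Slc19a1 at 0.19 in Dhep and 0.61 in FF. With median scaling their FF values were 0.32 and 0.22. Nucleotide sugar carriers, 15 members, had medians of 0.13 in Dhep and 0.22 in FF (-0.17 with median scaling). Slc35a3, which supplies UDP-N-acetylglucosamine to the Golgi, was lowest in FF hepatocytes: 7.76, 7.82 and 7.74 in Dhep hepatocytes against 7.26, 7.19 and 7.00 in FF hepatocytes, a difference of 0.63 (0.99 with median scaling) that its other probes put at 0.58 and 0.50. Of 15 carriers of organic ions, nucleosides and peptides, the carnitine transporter Slc22a5 stood at 0.83 by isolation in Dhep and 0.77 in FF (0.29 in FF with median scaling), though another of its probes gave -0.19 and -0.14. The nucleoside transporter Slc29a1 stood at -0.70 between the hepatocyte genotypes (-0.30 with median scaling) and at -0.04 on its other probe.

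Carriers of fatty acids and choline, 5 members, included the fatty acid transport proteins Slc27a2 and Slc27a5. Slc27a2 had log2 means of 14.11 in Dhep hepatocytes, 14.03 in FF hepatocytes, 13.77 in Dhep liver and 13.78 in FF liver. Slc27a5 had 13.70 in Dhep hepatocytes, 13.67 in FF hepatocytes, 13.35 in Dhep liver and 13.40 in FF liver. On these brightest probes the Dhep and FF differences, at most 0.08 in size, did not pass the adjusted p in either preparation. The other probe of Slc27a2 gave 0.24 in hepatocytes (limma adjusted p = 0.000798) and 0.002 in liver. The other probe of Slc27a5 gave 0.23 in hepatocytes (limma adjusted p = 0.0019) and -0.26 in liver (limma adjusted p = 0.00228). Slc44a1 stood at -0.48 between Dhep and FF hepatocytes, or at 0.00 with median scaling, and at -0.36 between the livers, with -0.39 and -0.04 on its other probe.

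Of the 4 members that are no transporters, Slc9a3r2, a scaffold protein, stood furthest from 0. It had log2 intensities of 6.94, 6.85 and 7.06 in Dhep hepatocytes and 7.67, 7.74 and 7.82 in FF hepatocytes. In liver it had 7.84, 7.90 and 7.98 in Dhep and 7.75, 7.69 and 7.82 in FF. Dhep hepatocytes were below the other 3 groups, by -0.79 ± 0.06 against FF hepatocytes (-0.40 with median scaling) and by -0.96 ± 0.06 against Dhep liver, both under the fold threshold. Markers of sinusoidal endothelium and stellate cells moved with it: 4 of 10 and 4 of 10 were called lower in Dhep than in FF hepatocytes, and 2 and 5 were called lower in Dhep hepatocytes than in Dhep liver. The log2 of the summed endothelial signal was 12.15 to 12.20 in Dhep hepatocytes, 13.06 to 13.12 in FF hepatocytes, 12.98 to 13.03 in Dhep liver and 12.76 to 12.80 in FF liver, and the part of those cells in the Slc9a3r2 values was not tested. Slc9a3r1 stood at 0.29 between hepatocyte genotypes, Slc7a6os at -0.39 (0.04 with median scaling) and Slc4a1ap at 0.13.

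The difference between the genotype differences asks whether Dhep minus FF was larger in hepatocytes than in liver. It was called for 4 members, all positive, where 0.748% of all probes were called positive and 1.78% negative. By another scaling the split was 12 positive and 0 negative (median scaling), 4 and 2 (the authors' normalized table) or 2 and 3 (cyclic loess). Over all probes it was 1900 and 112 of 22854, 191 and 592 of 22877, and 115 and 478 of 22817, in that order. Slc41a2 and Slc25a15 were called positive in each. Slc41a2 had the largest value, 1.46 ± 0.08 (limma adjusted p = 1.23e-12), from 1.29 in hepatocytes and -0.17 in liver. Slc25a15, on chromosome 8, encodes the mitochondrial ornithine carrier of the urea cycle. Its log2 intensity was 12.30, 12.26 and 12.19 in Dhep hepatocytes and 11.42, 11.39 and 11.44 in FF hepatocytes. In liver it was 11.90, 11.87 and 11.93 in Dhep and 12.06, 12.25 and 12.14 in FF. FF hepatocytes were the lowest group, and the genotype order was reversed in liver. The 2 genotype differences of Slc25a15 were 0.83 and -0.25, and they differed by 1.08 ± 0.08 (limma adjusted p = 1.29e-10), or by 0.77 on its other probe.

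Slc15a3 (1.06 ± 0.08, limma adjusted p = 3.17e-10) and Slc25a30 (1.06 ± 0.10, limma adjusted p = 5.92e-09) were called too, though Slc25a30 entered through the hepatocyte groups alone. Both were under the fold threshold without background correction (0.96 and 0.98) and with cyclic loess (0.905 and 0.93), and Slc25a30 also without FF liver array 2 (0.9995). Among the genes chosen the same way, 1.45% were called positive and 2.51% negative, against 2.99% and 0% of the members. At the adjusted p alone, 34 members were positive and 47 negative (median -0.01), where 23.9% of all probes were positive and 21.2% negative. The members nearest to a negative call were Slc2a9 (-0.98), Slc9a3r2 (-0.95) and Slc39a4 (-0.92, and -0.29 on its other probe). The other probe of Slc38a2, which did not stand for the gene, gave -1.45 (limma adjusted p = 1.06e-12) and passed both thresholds, against -0.03 on its brightest probe.

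By level, 52 members (38.8%) had all 3 FF hepatocyte arrays above the arrays of the other groups, against 18.8% of the genes chosen the same way. With median scaling this was 11 members (8.21%, against 2.80%). Dhep hepatocytes were highest for 26 members (19.4%, against 14.7%), and with median scaling for 53 (39.6%, against 21.6%). Dhep liver was highest for 5 members (3.73%, against 7.59%) and FF liver for 5 (3.73%, against 10.7%). With median scaling these were 1 (0.746%, against 1.94%) and 10 (7.46%, against 19.8%). The lowest group was Dhep hepatocytes for 3 members (2.24%, against 9.29% of those genes) and FF hepatocytes for 12 (8.96%, against 15.5%). It was Dhep liver for 20 (14.9%, against 8.62%) and FF liver for 17 (12.7%, against 5.24%). These counts of lowest groups are on the quantile scale and were not computed with median scaling.

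Probes of a gene did not always give the same value. Of 36 members with several probes, 7 had probes of opposite sign at the adjusted p between Dhep and FF hepatocytes, 4 between the livers, 4 by isolation in Dhep, 3 by isolation in FF and 1 in the difference between the genotype differences. Slc22a30, whose brightest probe stood at 0.46 between the livers, gave -0.23 on its other probe. It belongs to a set of closely related organic anion transporter genes with Slc22a28 on chromosome 19, so its probes may not tell these genes apart.

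Other membrane transporters and partners outside the rule were set beside the members. Of 58 named, 32 were measured, and between Dhep and FF hepatocytes 0 were called higher and 1 lower. That gene was Mfsd2a, a carrier of lysophosphatidylcholine, with log2 means of 9.37 in Dhep hepatocytes, 10.85 in FF hepatocytes, 8.23 in Dhep liver and 8.37 in FF liver. It was also the only one called by isolation in Dhep (1.14), by isolation in FF (2.48) and in the difference between the genotype differences (-1.34), while none was called between the livers. The medians of the 32 genes were -0.08 between the hepatocyte genotypes, 0.03 between the livers, 0.08 by isolation in Dhep and 0.15 by isolation in FF.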

How the data were processed

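RNA of 4 groups was measured on 12 Illumina bead arrays. The deposited raw intensity table holds 1 value for each probe and array, made with BeadStudio per the submitters' processing notes, which give no version. Raw columns were matched through the replicate number in each label's description, and every one correlated best with the same array's column in the authors' normalized table. That deposited table is linear too, with nearly equal array medians, and no source used here names its normalization.

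Background was treated by normexp with an offset of 50, then log2 intensities were set to a shared distribution by quantiles (limma 3.58.1, R 4.3.3). The 22859 probes above the median probe mean (log2 6.06) on all 3 arrays of some group were tested. One linear model held the 4 group means, with 8 residual and 14.8 prior degrees of freedom, and p-values were adjusted by Benjamini and Hochberg over all tested probes. Gene names came from the platform annotation given here: 34885 probes had 1 symbol, 18 several and 10378 none.

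Members, substrate classes, marker lists, motifs and the list of other transporters were chosen with earlier results of these data known. Up to 8 called members in each direction were named per pairwise comparison, where the groups did not overlap, filled to 4 by the largest differences at the adjusted p alone. Up to 5 called in each direction were named for the difference between the genotype differences. From each class of at least 4 members, up to 4 with the largest difference were added, with the genes at the signal threshold and the members that are no transporters.

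On simulated data, 50 of 50 probes changed 2.5-, 3- or 4-fold were called in each of 5 comparisons, and 0 unchanged ones. Of those changed 1.5-fold 0 of 50 were called, which the fold threshold fixed in advance. The simulated spread was that between repeat arrays of a group, so the run does not cover differences between mice. With 1 RNA sample in each group, the spread between mice cannot be estimated from these data. Pearson's r was 0.997 to 0.998 within groups. Same-numbered arrays were checked for shared deviations, which correlated at -0.04 to 0.07 over 12 pairs, so the numbers were not taken to pair arrays. The alternatives were other scalings, filters, probe choices, priors and thresholds, the array numbers as a block, each array left out, and a model on the 4 RNA means. Versions used for tables and figures were Python 3.11.15, pandas 2.3.3 and matplotlib 3.10.9.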

Additional observations from a re-analysis of the deposited data

Results flagged for a closer look

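In 4 members the Dhep minus FF difference was larger in hepatocytes than in liver by the test of that difference itself. Slc41a2, the magnesium transporter, stood apart most: the genotype difference was 1.29 in hepatocytes and -0.17 in liver, 1.46 apart on the log2 scale. Slc25a15, the mitochondrial ornithine carrier, had 0.83 in hepatocytes and -0.25 in liver, 1.08 apart. Slc15a3, the histidine and peptide transporter, had 1.58 in hepatocytes and 0.52 in liver, 1.06 apart. Slc25a30, the mitochondrial carrier, had 1.21 in hepatocytes and 0.15 in liver, also 1.06 apart. Slc25a30 entered through the hepatocyte groups alone, so its value is given as a description. Slc15a3 and Slc25a30 were under the fold threshold without background correction and with cyclic loess. All 4 members were higher on the 3 Dhep hepatocyte arrays than on the 3 FF hepatocyte arrays. The test compares 4 RNA samples.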

How the results depend on the processing

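Of 221 recomputed values of the 18 called gene differences under other settings, 193 kept their call, 28 lost it and 0 reversed. Other filters, priors and signal thresholds, the array block and the fit to the compared groups alone leave a gene's log2 difference unchanged. Those settings could not reverse a call, so the total is no measure of robustness. The scalings, the choice of probe and the RNA means were the settings that could change the difference. Leaving out 1 array kept 211 of 216, with the 5 losses named in the report (Slc38a2 at 3 arrays, Slc25a30 and Slc4a4). For pairwise differences the 216 include arrays of groups outside the comparison, which enter the difference only through the shared normalization. Counts called without 1 array were 5 to 6 (Dhep minus FF, hepatocytes), 0 to 0 (Dhep minus FF, liver), 4 to 5 (isolation, Dhep), 3 to 4 (isolation, FF) and 3 to 6 (difference between the genotype differences). At the adjusted p alone, higher and lower members without 1 array were 35 to 38 and 51 to 58, 16 to 21 and 22 to 32, 66 to 71 and 16 to 19, and 79 to 82 and 19 to 25 in the 4 pairwise comparisons, in that order.

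With the array number as a replicate block the called counts were 6, 0, 4, 4 and 4 in those 5 comparisons, as without it, and the numbers were not taken to pair arrays. Dropping the fold threshold gives 96, 51, 89, 105 and 81 members, since that threshold is what removes them. Without background correction 2 members were called in the difference between the genotype differences, and with median scaling 12. Over all probes these settings called 130 positive and 305 negative of 22826, and 1900 and 112 of 22854. Median scaling gave 90 higher and 14 lower at the adjusted p (Dhep minus FF, hepatocytes), 10 and 53 (liver), 87 and 8 (isolation, Dhep) and 31 and 56 (isolation, FF). Cyclic loess gave 34 higher and 24 lower in Dhep than in FF liver, against 20 and 31, so that balance turned. Shares over all probes at the adjusted p alone were not computed with these scalings, and the cause of these shifts was not tested. Recomputing the counts at the adjusted p alone was chosen after seeing the data.

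A limma model on the 4 RNA means, with preparation and genotype as its only terms, left 1 residual degree of freedom. It called 0 members for either term, and 0 passed at the adjusted p alone. The 4 pairwise comparisons are not estimated separately by it. The largest log2 difference in size among members was 1.05 for genotype (Slc15a3) and 1.53 for preparation (Slc4a4). That model has no term for the difference between the genotype differences. Isolation, mouse and RNA sample cannot be told apart within a group of arrays.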
